A study of Mus musculus with 2 samples.

Results

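Interneurons of the caudal ganglionic eminence (CGE) type were examined in single-cell transcriptomes of the E16.5 mouse dorsal telencephalon, the region that becomes the cerebral cortex. The cells were chosen by their own unique molecular identifier (UMI) counts, that is, by counts of captured mRNA molecules. A cell was taken as CGE-type if it held at least 2 UMIs of Adarb2, at least 1 UMI of Prox1 and at least 2 UMIs summed over the GABAergic genes Gad1, Gad2, Dlx1 and Dlx6os1, and no UMI of Lhx6, Sst, Top2a, Eomes or Neurod1. This rule found 280 cells among the 16348 that passed the cell filter, 139 of 8139 in WT replicate 1 and 141 of 8209 in WT replicate 6. The name CGE-type stands for this rule. The share of cells that met it was 1.71% (95% Wilson interval 1.45 to 2.01) in WT replicate 1 and 1.72% (1.46 to 2.02) in WT replicate 6. The mean was 1.71% ± 0.0069 (SD, n = 2).

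Both libraries came from brain hemispheres of mouse embryos whose genotype the labels give only as WT, without naming alleles. The series was designed around a conditional knockout of Dot1l driven by Emx1, which is active in the dorsal telencephalon and not in the eminences where interneurons are born, but knockout cells were not used here. The 2 libraries served as the replicates of 1 group, and all comparisons run between cell classes within it. The tissue was dissociated with papain and captured with the 10x Genomics 3' chemistry. The libraries were not the same embryo sequenced again, since Xist, from the inactive X chromosome, and the Y-linked Ddx3y differed in the CGE-type cells. Xist had 1079 UMIs in the first library and 0 in the other, whereas Ddx3y had 0 and 30.

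Cortical interneurons are inhibitory neurons that are born outside the cortex, in the ganglionic eminences of the ventral telencephalon, and reach it by tangential migration. Cells from the medial ganglionic eminence (MGE) depend on Lhx6 and mature into Sst+ and Pvalb+ types, whereas cells from the CGE depend on Prox1 and on the nuclear receptors Nr2f1 and Nr2f2 and give rise to Vip+, Reln+ and other Htr3a+ types. Adarb2, which encodes an RNA-binding relative of the RNA-editing enzymes, marks the CGE lineage in the adult cortex. The lateral ganglionic eminence (LGE) supplies striatal projection neurons and, from its dorsal part, Meis2+ cells of the olfactory bulb and intercalated amygdala.

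The genes named here are known from their transcripts only, so no regulatory assay accompanies them. Upstream sequence was examined for the CGE-lineage transcription factors because 7 of the 9 were higher than in MGE interneurons in the comparison given further on. RefSeq start sites on GRCm38.p6, the assembly that matches the mm10 build of the submitters' processing notes, were found for 7 of the 9 factors, all but Tcf4 and Zbtb16. The 250 bases before each start were searched on both strands for AGGTCA, the half-site bound by nuclear receptors such as Nr2f2, and for TAATTA, a core of homeodomain sites, and the matches described did not overlap each other. AGGTCA was present in 14.0% of all 32851 such windows and TAATTA in 4.84%. Counting a gene if any of its starts matched, AGGTCA occurred in 15.8% of genes and TAATTA in 5.65%, against 1 of 7 factors for each, Sp8 in both cases. Sp8 had 3 listed starts, and the 2 motifs lay before different starts. Adarb2, Prox1 and Sorcs3, which are not among these factors, were searched too. Of them Adarb2 held TAATTA and is shown because it matched. The 120 bases before the start that held AGGTCA at Sp8 and TAATTA at Adarb2 are shown 5' to 3' on the plus strand, which is the strand of both genes, with the matching letters in capitals. The Sp8 match reads TGACCT here because it lies on the other strand. These are matches of letters and no binding was measured.
Sp8 (chr12:118847113-118847232): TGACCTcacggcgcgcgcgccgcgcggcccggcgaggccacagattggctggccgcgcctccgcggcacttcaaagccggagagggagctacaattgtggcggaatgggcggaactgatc
Adarb2 (chr13:8202746-8202865): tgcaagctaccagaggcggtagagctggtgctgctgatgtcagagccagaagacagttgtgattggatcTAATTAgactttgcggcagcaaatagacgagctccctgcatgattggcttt

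CGE-type cells were shallower than the cells as a whole. Their median depth was 4279 UMIs and 2046 genes in WT replicate 1, and 4231 UMIs and 2009 genes in WT replicate 6, against medians of 6924 and 6664 UMIs over all cells kept. Summed over the class, 728637 and 859698 UMIs were available. Since free RNA in a droplet can place a UMI in a cell that does not express the gene, microglia (94 and 101 cells, medians of 8762.5 and 7115 UMIs) were used as a class that should lack interneuron genes, and shares of cells with a UMI were taken after thinning each cell to 1500 UMIs. All intervals given here cover counting error only.

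The defining genes were first examined across the cells, as a description, since Adarb2 and Prox1 chose them. Adarb2 ranged from 2 to 175 UMIs per cell in WT replicate 1 with a median of 29, and from 2 to 316 in WT replicate 6 with a median of 32. Prox1, a homeobox factor required for CGE interneuron maturation, was far sparser, with a median of 2 UMIs per cell in both libraries and maxima of 12 and 9. Exactly 1 Prox1 UMI was present in 65 and 68 of the cells, so that many of the cells entered on a single molecule. Prox1 reached 408 and 346 CPM (counts scaled to a total of 1000000) in the summed CGE-type cells. Adarb2 reached 7808 and 7700 CPM, against 405 and 144 in MGE interneurons (Lhx6 of at least 1 UMI and Nxph1 of at least 2; 409 cells in each library) and 118 and 102 in microglia. Adarb2 was not confined to the CGE-type cells, as dorsal LGE-type cells (547 and 541 cells with the same GABAergic rule, at least 3 Meis2 UMIs and Tshz1 or Pbx3) held 2091 and 2015 CPM. At least 1 Prox1 UMI was also present in 41 and 33 of the MGE interneurons of WT replicates 1 and 6. A single Prox1 molecule therefore does not by itself set a cell apart as CGE-type.

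The remaining markers of the class, which the rule did not use, were all highest in the CGE-type cells among the gated GABAergic classes. Nr3c2, the mineralocorticoid receptor, stood at 468 and 454 CPM in CGE-type cells of WT replicates 1 and 6, compared with 55.3 and 14.0 CPM in MGE interneurons and 12.3 and 10.6 CPM in dorsal LGE-type cells. Sorcs3, a sorting receptor of neurons, stood at 497 and 526 CPM in CGE-type cells and at 86.9 and 29.5 CPM in MGE interneurons. Zbtb16, a zinc-finger transcription factor, separated the lineages least, with 133 and 198 CPM in CGE-type cells against 88.5 and 90.0 CPM in MGE interneurons. For each of these genes, both CGE-type libraries lay above both MGE libraries. After thinning to 1500 UMIs, Nr3c2 was found in 32.9% of CGE-type cells (27.6 to 38.6), 1.83% of MGE interneurons and 1.54% of microglia. Sorcs3 was found in 43.6% of CGE-type cells and 2.05% of microglia, and Zbtb16 in 26.4% and 1.54%. The shares in CGE-type cells were therefore above those in microglia, which were taken as background.

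**Figure D1:**
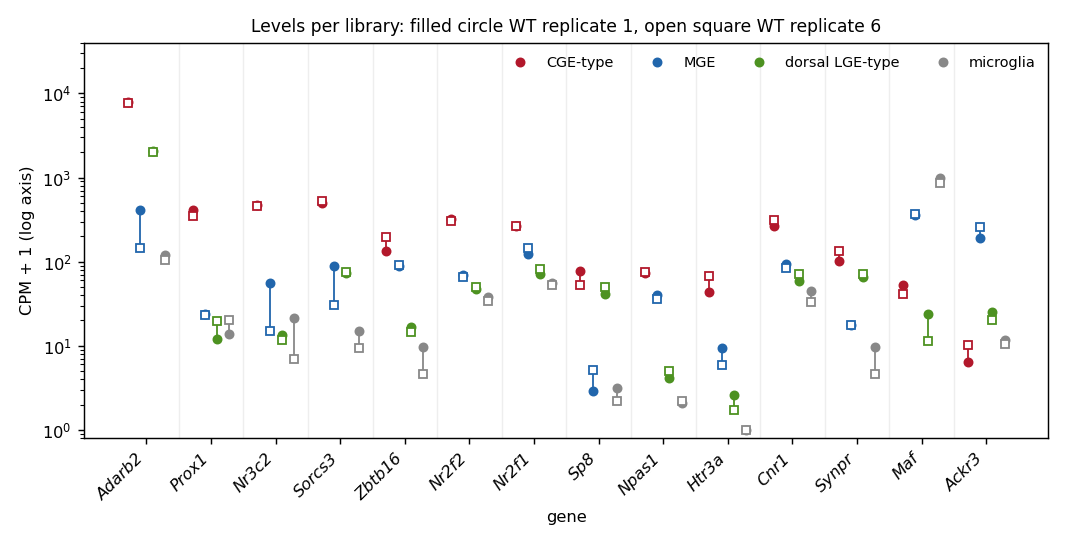
Levels of 14 genes as summed UMIs in CPM plus 1 (log axis) in CGE-type cells, MGE interneurons, dorsal LGE-type cells and microglia, with a filled circle for WT replicate 1 and an open square for WT replicate 6. Adarb2 is at 7808 and 7700 CPM in the CGE-type cells, and Maf and Ackr3 lie below the MGE interneurons in both libraries.

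Cells close to the limits of the rule were then inspected. In WT replicate 1, 6 CGE-type cells held exactly 2 Adarb2 UMIs, and 21 cells outside the rule held exactly 1 while meeting all other conditions. In WT replicate 6 the numbers were 6 and 11. Nr3c2 was at 0 UMIs on both sides of this limit in both libraries. The limit on Prox1 left out many more cells, since 530 and 486 cells met every condition except that they had no Prox1 UMI. Among those cells, Nr3c2 was at 68.8 and 64.9 CPM, Nr2f2 at 77.5 and 58.2 CPM and Meis2 at 4151 and 3757 CPM. CGE-type cells with exactly 1 Prox1 UMI had Nr3c2 at 409 and 315 CPM and Meis2 at 2141 and 1650 CPM, and those with 2 or more had Nr3c2 at 508 and 574 CPM and Meis2 at 1231 and 1071 CPM. Cells just inside the Prox1 limit thus differed from those just outside it in Nr3c2 and Meis2, which the rule did not use.

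The CGE-type cells were not uniform, and Meis2, a homeobox gene of the LGE and its olfactory bulb lineage, traced a division that many of the genes examined followed. Meis2 UMIs were present in 78 of 139 and 76 of 141 cells. These cells were also deeper, with medians of 5666.5 and 6133 UMIs against 3008 and 3243 in the cells without Meis2, so the levels were taken after thinning every cell to 1500 UMIs. At that depth 62 and 55 cells kept a Meis2 UMI and 77 and 86 did not. Over both libraries this was 41.8% of CGE-type cells (36.2 to 47.6), against 25.4% of MGE interneurons, 25.1% of microglia and 97.8% of dorsal LGE-type cells. A share up to that of microglia was taken as background. Likely doublets made up 18.1% and 13.9% of the microglia, and whether free RNA or doublets placed Meis2 there was not tested. The division was made after the values had been seen and is described without a test.

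Markers of the CGE lineage were mostly higher in the Meis2-negative cells, by differing amounts. In thinned UMIs, Adarb2 was at 14113 and 14992 CPM in the cells without Meis2 and at 4688 and 5018 CPM in those with it. Nr3c2 was at 970 and 891 CPM without Meis2, against 258 and 133 CPM with it. Sorcs3 showed the same order, with 883 and 1062 CPM against 226 and 267 CPM. Npas1, a bHLH-PAS transcription factor of CGE-derived and other interneurons, lay mostly in the cells without Meis2, at 173 and 178 CPM against 10.8 and 12.1 CPM, the latter standing for 1 UMI in each library. Npas3, a related factor, was at 4312 and 4481 CPM against 1484 and 1709 CPM. Cnr1, the cannabinoid receptor of later Cck+ basket cells, was at 537 and 589 CPM against 86.0 and 36.4 CPM. Lgi1, which encodes a secreted synaptic protein, was at 113 and 163 CPM against 10.8 and 0 CPM. Erbb4, the neuregulin receptor that guides migrating interneurons, was at 16918 and 18108 CPM against 7957 and 8473 CPM. Other CGE-lineage genes differed less. Prox1, which chose the cells, was at 641 and 589 CPM without Meis2 against 387 and 352 CPM with it. Nr2f2 was at 355 and 426 CPM against 269 and 242 CPM, and Nr2f1 at 338 and 302 CPM against 172 and 158 CPM. Id2 did not follow the division, at 113 and 116 CPM against 108 and 145 CPM.

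Another set of genes lay with the Meis2-positive cells. Foxp2, a forkhead factor of LGE derivatives, was at 1194 and 1358 CPM in thinned cells with Meis2 and at 51.9 and 85.3 CPM in those without. Dcc, the netrin receptor, was at 1505 and 1745 CPM against 390 and 171 CPM. Robo2, a receptor for Slit proteins, was at 2559 and 2073 CPM against 519 and 597 CPM. Etv1, an ETS factor expressed in dorsal LGE derivatives, was at 237 and 109 CPM against 8.66 and 7.75 CPM. Neurod6, a factor of excitatory cortical neurons, was likewise higher in the cells with Meis2, at 118 and 206 CPM against 60.6 and 54.3 CPM, and the part of excitatory RNA in the division was not tested. Sp8, a zinc-finger factor of the CGE and dorsal LGE, did not follow the division, at 86.0 and 60.6 CPM with Meis2 and 86.6 and 69.8 CPM without it. The rule does not exclude Meis2, so the name CGE-type may not hold for the cells with Meis2. The share of CGE-type cells includes them.

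**Figure D2:**
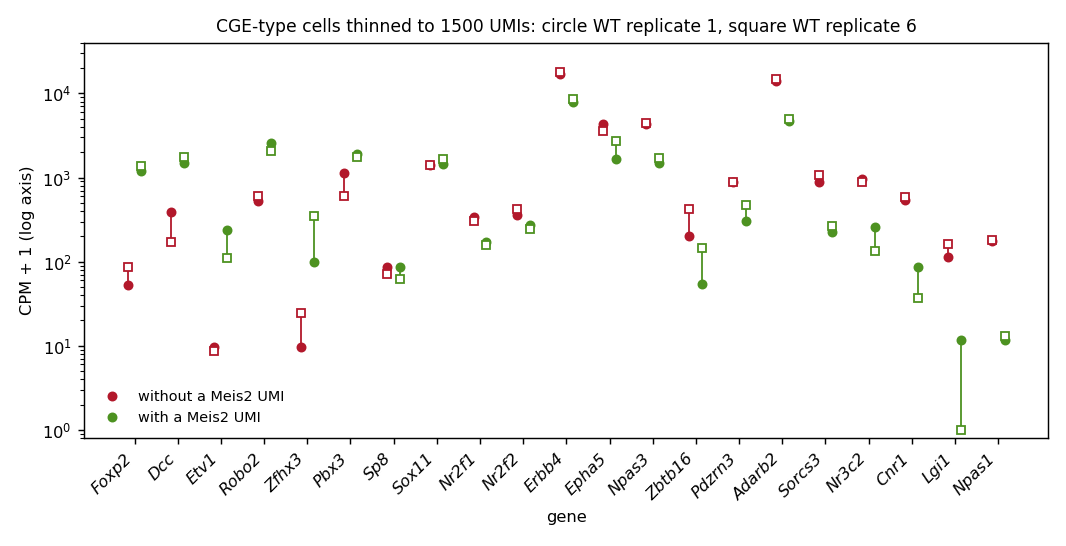
Levels of 21 genes in CGE-type cells thinned to 1500 UMIs, as CPM plus 1 (log axis), split into cells with and without a Meis2 UMI, with a circle for WT replicate 1 and a square for WT replicate 6. Foxp2, Dcc, Etv1 and Robo2 lie higher in the cells with Meis2, Adarb2, Nr3c2, Sorcs3, Cnr1 and Npas1 in those without, and Sp8 at about the same level in both.

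Detection of pairs of markers was also counted within cells. Of the 16 and 18 thinned cells with an Npas1 UMI, 15 and 12 also had Nr3c2, where independent detection would have given 5.3 and 5.9 cells. Meis2 and Nr3c2 were found together in 9 and 6 cells, where independence would have given 20.5 and 17.9. Npas1 and Meis2 shared 1 cell in each library. Nr2f2 and Zbtb16 shared 14 and 23 cells, against 8.4 and 19.3. Sp8 and Nr2f2 coincided in 4 and 9 cells, where independence would have given 4.9 and 5.8, so that the libraries differed in direction. These are counts of small numbers of cells that share a library, and they are given as a description.

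To determine which genes set the CGE-type cells apart from the other interneuron lineage, UMIs were summed per library and class and set against those of MGE interneurons in a quasi-likelihood test of edgeR, with 2 sums per class. Of 11145 genes tested, 157 were higher in the CGE-type cells (1.41%) and 213 were lower (1.91%) at an adjusted p below 0.05, genes of the rules themselves being left out. The CGE-type cells expressed more Sp8, Htr3a and Nr2f2, and less Nxph2, Cacng3, Ackr3, Npy and Maf. Of 8 general GABAergic genes 0 passed the test in either direction by edgeR or DESeq2, with 3 at an unadjusted p below 0.05 by edgeR. The rule excludes cells with Lhx6 or Sst, so that a lower level of other MGE genes is partly set by the choice of the cells.

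Among the 9 CGE-lineage transcription factors, 7 were higher in CGE-type cells and 0 lower, with a median log2 difference of 1.04 where that of all genes tested was 0.0031. Zbtb16 and Nr3c2 are markers by which the class was proposed, which leaves 5 others. Sp8 was at 75.5 and 52.3 CPM in CGE-type cells and at 1.92 and 4.16 CPM in MGE interneurons, a log2 difference of 4.45 (SE 0.37, edgeR adjusted p = 0.000795). Nr2f2, which specifies the caudal eminence, was at 323 and 301 CPM against 68.4 and 65.0 CPM, a log2 difference of 2.28 (SE 0.14, edgeR adjusted p = 0.000168). Its relative Nr2f1 differed less, with 264 and 262 CPM against 121 and 145 CPM and a log2 difference of 1.04 (SE 0.14). Npas3 and Npas1 differed by 1.16 and 1.04 on the log2 scale. The call for Npas1 was lost with DESeq2 (adjusted p = 0.0764), with the stricter cell filter (edgeR adjusted p = 0.0835) and with MGE cells held to matched exclusions (edgeR adjusted p = 0.106). Id2 and Tcf4 did not pass the test, with edgeR adjusted p-values of 0.514 and 0.953.

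Genes of mature CGE-derived subtypes were detected unevenly. Of 17 such genes 9 could be tested, of which 3 were higher and 1 lower in the CGE-type cells. Htr3a, the ionotropic serotonin receptor that unites the adult CGE classes, was at 42.5 and 67.5 CPM against 8.31 and 4.92 CPM in MGE interneurons, a log2 difference of 3.09 (SE 0.34, edgeR adjusted p = 0.00269). Synpr, a synaptic vesicle protein, was at 102 and 133 CPM against 16.6 CPM in both MGE libraries, a log2 difference of 2.87 (SE 0.19). Cnr1 was higher by 1.76 on the log2 scale (SE 0.15). Reln, the secreted glycoprotein of neurogliaform cells, was lower, at 75.5 and 90.7 CPM against 311 and 190 CPM, and its call was lost with the stricter gate (edgeR adjusted p = 0.0517). Vip, Sncg, Crh, Penk and Chat were at 0 UMIs in the CGE-type cells of both libraries. For Vip, 0 of 280 cells allows a share of cells with a UMI of up to 1.07%. Htr3a itself was found in 19.6% of CGE-type cells, and in 5% after thinning to 1500 UMIs, where MGE interneurons stood at 0.856% and microglia at 0%.

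**Figure D3:**
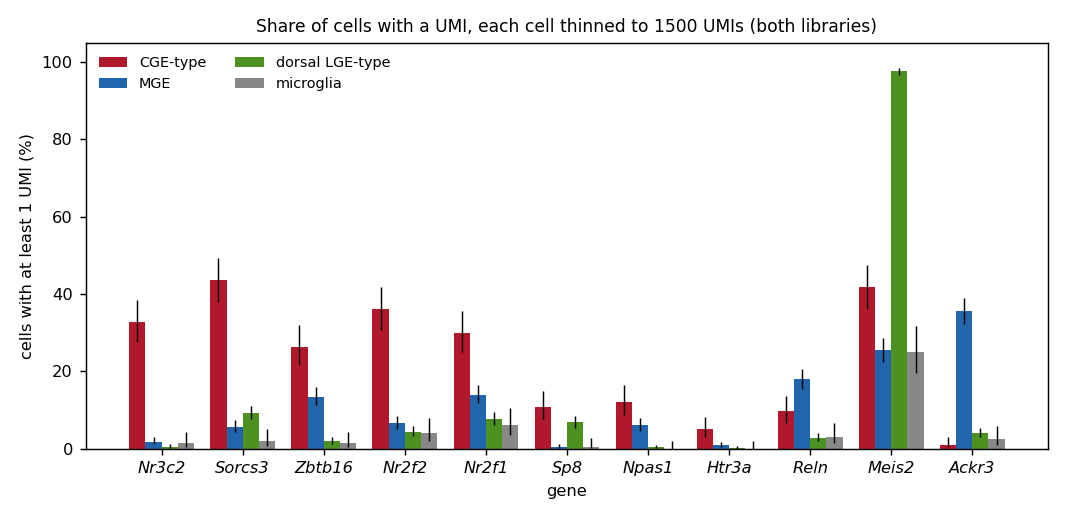
Share of cells with at least 1 UMI after thinning each cell to 1500 UMIs, over both libraries, with 95% Wilson intervals, for CGE-type cells, MGE interneurons, dorsal LGE-type cells and microglia. Nr3c2 is at 32.9% in CGE-type cells and 1.83% in MGE interneurons, Ackr3 at 1.07% and 35.6%, and Meis2 at 97.8% in dorsal LGE-type cells.

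Of 13 MGE-lineage genes tested, 9 were lower in CGE-type cells and 0 higher. Maf, a transcription factor of MGE interneurons, was at 52.2 and 40.7 CPM in CGE-type cells against 355 and 365 CPM, a log2 difference of -2.91 (SE 0.17, edgeR adjusted p = 0.000168). Sox6, which acts downstream of Lhx6 in the same lineage, differed by -2.11 on the log2 scale. Npy, the neuropeptide of many Sst+ cells, was at 2.74 and 20.9 CPM against 249 and 156 CPM. Calb1 and Elfn1 differed by -3.69 and -3.11. Nkx2-1, which specifies the MGE itself, had 1 and 2 UMIs in the CGE-type cells and did not pass the test (edgeR adjusted p = 0.0685).

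Beyond the lists, the largest differences among genes above 50 CPM were on the MGE side. Nxph2, a secreted neurexophilin related to the gating gene Nxph1, had 0 UMIs in CGE-type cells and 688 in MGE interneurons, and with a floor of 3 counts over the class it was at least 63.1-fold lower. Cacng3, an AMPA receptor auxiliary subunit, had 2 UMIs against 480, a ratio of 66.0 (exact counting interval 18.2 to 547). Ptchd4 was at 8.23 and 6.98 CPM against 146 and 140 CPM. Neto1, an auxiliary subunit of kainate receptors, was at 20.6 and 22.1 CPM against 350 and 312 CPM, and Dpp10, an auxiliary subunit of A-type potassium channels, at 76.9 and 80.3 CPM against 839 and 1109 CPM. On the CGE side, Pdzrn3, a ubiquitin ligase, was at 557 and 535 CPM against 78.3 and 64.7 CPM, a log2 difference of 2.98 (SE 0.16, edgeR adjusted p = 0.000121). Sdk2, an adhesion molecule, differed by 2.44 (SE 0.21). Kctd16, an auxiliary subunit of GABA-B receptors, was at 102 and 116 CPM against 21.7 and 3.78 CPM, a log2 difference of 3.09 (SE 0.50) that was 2.22 and 4.88 in WT replicates 1 and 6 taken singly, and its call was lost with DESeq2 (adjusted p = 0.117). Gm43948 was higher by 3.01 on the log2 scale (SE 0.29), and Gm45025, with 5 and 1 UMIs in the CGE-type cells, differed by -3.77 (SE 0.45), with -2.99 and -4.81 in the single libraries. Sfta3-ps had 3 UMIs in CGE-type cells against 323, a ratio of 29.6 (exact counting interval 10.0 to 144). Cntnap3 was at 15.1 and 0 CPM against 89.4 and 117 CPM, and its call was lost with DESeq2 (adjusted p = 0.998). Prox1os, transcribed antisense to the gating gene Prox1, was at 54.9 and 73.3 CPM against 7.03 and 4.54 CPM and is given as a description.

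Receptor genes differed mainly in one direction. Of 24 tested receptors and chloride transporters, 1 was higher and 8 were lower in CGE-type cells. Grm5, a metabotropic glutamate receptor, was at 41.2 and 17.4 CPM against 478 and 680 CPM, a log2 difference of -4.28 (SE 0.34). Gria1, an AMPA receptor subunit, was at 129 and 128 CPM against 1651 and 2275 CPM, a log2 difference of -3.88 (SE 0.20, edgeR adjusted p = 0.000121). Gria4 differed by -1.93 and the kainate receptor genes Grik1 and Grik2 by -2.47 and -1.33, with Grik1 at -1.89 and -3.43 in WT replicates 1 and 6 taken singly. Chrna7, which encodes a nicotinic acetylcholine receptor subunit, was the gene that was higher, at 92.0 and 108 CPM against 35.8 and 29.1 CPM, a log2 difference of 1.67 (SE 0.18, edgeR adjusted p = 0.00238).

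Of 29 migration and guidance genes tested, 1 was higher and 3 were lower. Ackr3, the scavenging receptor for Cxcl12 that acts beside Cxcr4 in migrating interneurons, was at 5.49 and 9.31 CPM in CGE-type cells and at 188 and 255 CPM in MGE interneurons, a log2 difference of -4.81 (SE 0.30, edgeR adjusted p = 0.00018). Its thinned share was 1.07% of CGE-type cells, below the 2.56% of microglia, and so at background. Cxcr4 was sparse in both classes and did not pass the test, at 5.49 and 18.6 CPM against 20.4 and 34.0 CPM. Slit1, a secreted repellent, was higher in CGE-type cells, at 202 and 206 CPM against 54.6 and 53.3 CPM, a log2 difference of 1.97 (SE 0.13, edgeR adjusted p = 0.000246). Sema3a, another secreted guidance cue, was lower by 1.79 on the log2 scale. Erbb4 was abundant in both lineages and did not pass the test, at 11493 and 10706 CPM against 7952 and 9298 CPM (edgeR adjusted p = 0.197). Of 38 synaptic adhesion genes, 4 were higher and 9 lower, with the protocadherin gene Pcdh9 at 2827 and 3053 CPM against 1138 and 1116 CPM and Tenm2 at 1608 and 2347 CPM against 3926 and 4823 CPM. Among 14 neuronal maturation genes 0 were higher and 1 was lower, namely Syt1, the calcium sensor of vesicle release, by 1.59 on the log2 scale.

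**Figure D4:**
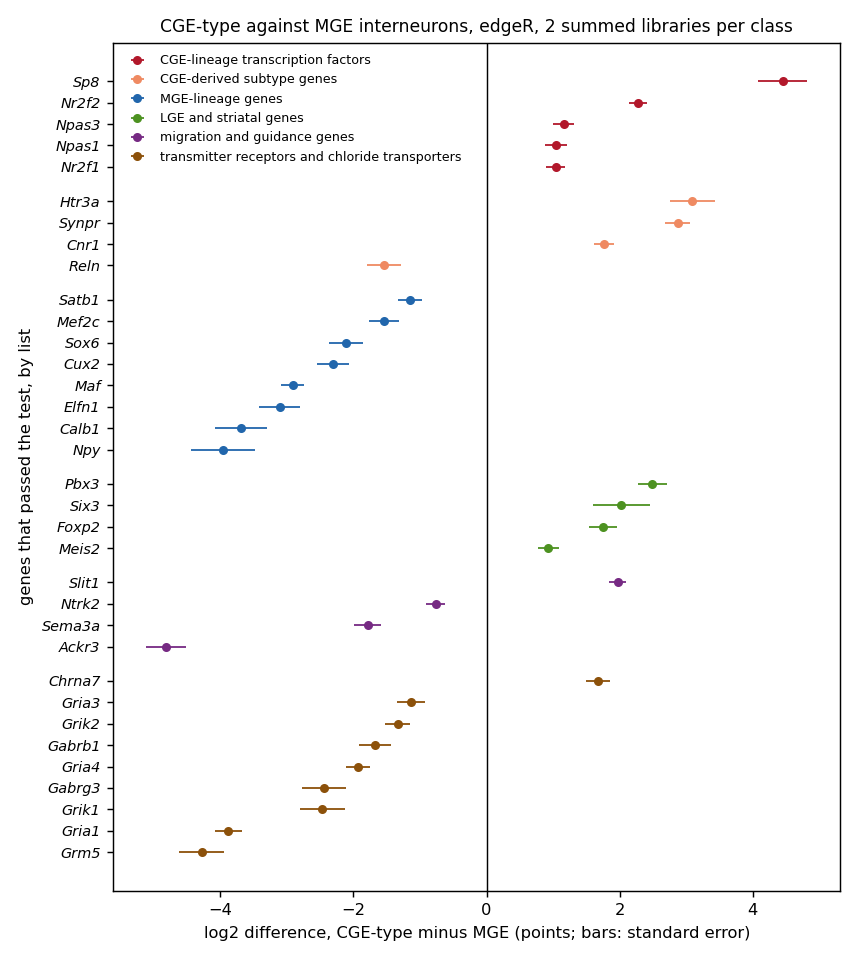
Log2 differences between CGE-type cells and MGE interneurons (points, edgeR) with standard errors (bars) for the genes of 6 lists that passed the test, coloured by list, with genes used by the rules, markers of the class and 1 gene not reported here left out. Sp8 is at 4.45, Nr2f2 at 2.28, Maf at -2.91, Gria1 at -3.88 and Ackr3 at -4.81.

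Of 13 LGE and striatal genes tested against MGE interneurons, 4 were higher in the CGE-type cells and 0 lower, with Pbx3 at 1305 and 871 CPM against 203 and 201 CPM, Foxp2 at 620 and 458 CPM against 193 and 140 CPM, and Meis2 at 1600 and 1340 CPM against 840 and 768 CPM. Foxp2 followed the Meis2 division. In the CGE-type cells without a Meis2 UMI at full depth, Foxp2 was at 29.5 and 96.7 CPM and Pbx3 at 1253 and 552 CPM. This Foxp2 level was below both libraries of MGE interneurons, which were not split by Meis2 and kept their cells with Meis2. With the division made after thinning, Foxp2 was at 51.9 and 85.3 CPM and Pbx3 at 1117 and 605 CPM in the cells without Meis2. The calls for Meis2 and Six3 were lost with the stricter gate of 3 Adarb2 and 2 Prox1 UMIs (edgeR adjusted p = 0.0827 and 0.376), in which cells with few Prox1 UMIs are absent, and that for Six3 also with the stricter cell filter (edgeR adjusted p = 0.0521). Ebf1, a striatal factor, did not pass the test, and 98.4% and 97.4% of its UMIs in CGE-type cells lay in the 5 cells with the most of it.

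A second comparison addressed where the CGE-type cells stood relative to dorsal LGE-type cells, which share Adarb2, Sp8 and the GABAergic genes. Of 11026 genes tested, 261 were higher in the CGE-type cells (2.37%) and 197 lower (1.79%). With the library as a replicate block the 458 called genes became 758. Because the dorsal LGE-type rule asks for Meis2, Tshz1 or Pbx3 and excludes Ebf1 and Isl1, these genes were left out of the counts. Cells that met the CGE-type rule were also kept out of the dorsal LGE-type class. A lower level of other LGE genes and a higher level of CGE-lineage factors are thus partly set by the choice of the cells. Sp8 did not pass the test between these classes, at 75.5 and 52.3 CPM in CGE-type cells against 40.8 and 48.8 CPM (log2 difference 0.55, SE 0.21, edgeR adjusted p = 0.227).

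Of the 9 CGE-lineage factors, 7 were higher in CGE-type cells and 0 lower, Zbtb16 and Nr3c2 among the 7. Npas1 was at 71.4 and 74.4 CPM against 3.16 and 4.04 CPM, a log2 difference of 4.37 (SE 0.26, edgeR adjusted p = 1.63e-05). Npas3 was at 2442 and 2616 CPM against 295 and 219 CPM, a log2 difference of 3.34 (SE 0.18). Nr2f2 and Nr2f1 differed by 2.75 and 1.86, and Tcf4, the bHLH partner of many proneural factors, by 1.57. Htr3a was at 42.5 and 67.5 CPM against 1.58 and 0.734 CPM, a log2 difference of 5.52 (SE 0.42, edgeR adjusted p = 9.06e-05), and Cnr1 was higher by 2.22. Pdzrn3, Galnt14 and Lgi1 were higher by 3.42, 3.84 and 3.67, with Galnt14 at 4.63 and 3.02 in the single libraries.

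Migration genes divided evenly between these classes, with 4 of 28 higher and 4 lower. Erbb4 was at 11493 and 10706 CPM in CGE-type cells against 2989 and 2770 CPM, a log2 difference of 1.99 (SE 0.12, edgeR adjusted p = 1.63e-05). Epha5, an ephrin receptor, and Slit1 were higher by 1.67 and 2.26. The Slit receptors Robo1 and Robo2 and the netrin receptor Unc5c were lower, with log2 differences of -0.89, -0.62 and -1.71. Of 8 general GABAergic genes 1 was higher and 1 lower, the latter Sp9 by 0.60 on the log2 scale, with a call that was lost with DESeq2 (adjusted p = 0.398) and, by edgeR, with the stricter cell filter (adjusted p = 0.0643), with cells thinned to 1500 UMIs (adjusted p = 0.201) and with cells holding excitatory transcripts left out (adjusted p = 0.0529).

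All 8 LGE genes that the rule left for testing were lower in CGE-type cells, against a class chosen on Meis2 and on Tshz1 or Pbx3. Drd2, the dopamine receptor of indirect-pathway striatal neurons, was at 9.61 and 3.49 CPM against 61.7 and 55.8 CPM, a log2 difference of -3.16 (SE 0.34). Six3, a homeobox factor of striatal development, was at 42.5 and 19.8 CPM against 194 and 256 CPM. Rarb, Zfhx3 and Foxp1 differed by -2.44, -1.84 and -1.46. Outside the list, Cpne4 was at 8.23 and 3.49 CPM against 110 and 83.7 CPM, a log2 difference of -4.04 (SE 0.36, edgeR adjusted p = 0.00017). Il1rapl2, Caln1, Sgcz and Syt6 differed by -3.32, -3.07, -2.87 and -2.72. In WT replicates 1 and 6 taken singly, Il1rapl2 differed by -2.24 and -4.12 and Syt6 by -2.22 and -3.38. Grm5, lower than in MGE interneurons, was lower here too, at 41.2 and 17.4 CPM against 257 and 231 CPM. Both comparisons use the same CGE-type sums, so the values are set side by side only.

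Against the 7591 and 7659 cells kept that were in neither the CGE-type nor the MGE gate, 893 of 17853 genes were higher in the CGE-type cells (5%) and 1254 were lower (7.02%). These other cells were deeper, with medians of 7080 and 6817 UMIs. All 8 general GABAergic genes were higher, among them the vesicular GABA transporter gene Slc32a1 at 56.3 and 48.9 CPM against 12.4 and 10.8 CPM in cells that had been chosen on Gad and Dlx UMIs. Among the genes named by rule, Htr3a was higher by 5.47, Npas1 by 4.40, Erbb4 by 3.94 and St18, a zinc-finger factor of ventral telencephalic neurons, by 3.29 on the log2 scale. Id2 was the CGE-lineage factor that was lower, at 107 and 186 CPM against 350 and 415 CPM. The genes named on the lower side are best known from pericytes, macrophages, meningeal fibroblasts, glia and dividing cells. Rgs5, a pericyte gene, had 1 UMI in the CGE-type cells and 9660 elsewhere, a ratio of 128 (exact counting interval 22.9 to 5041), and Vtn likewise had 1 UMI against 6289, a ratio of 83.1 (exact counting interval 14.9 to 3282). Pf4, Igf2, Col3a1 and Nusap1 differed by -4.37, -4.36, -4.35 and -3.69 on the log2 scale, each on at most 5 UMIs per library in the CGE-type cells. The calls for Pf4 and Col3a1 were lost with cells thinned to 1500 UMIs (edgeR adjusted p = 0.0874 and 0.0625). Apoe, a lipid carrier of glia, was at 19.2 and 15.1 CPM against 266 and 228 CPM. Of 10 progenitor and cycling markers 8 were lower, including Mki67 at 8.23 and 6.98 CPM against 101 and 92.9 CPM, after a rule that excludes Top2a. Sox2 was the member that was higher, at 199 and 172 CPM against 85.9 and 83.2 CPM.

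Markers of other cell types were examined within the CGE-type cells. Of the 7 microglia markers, C1qa and C1qb were at 0 UMIs in both libraries, whereas the others were detected. Summed over the list, these markers reached 38.4 and 11.6 CPM in CGE-type cells, against 66.1 and 104 CPM in MGE interneurons. Of the excitatory markers, Neurod6 was at 89.2 and 161 CPM in the CGE-type cells, against 79.0 and 82.1 CPM in microglia and 792 and 711 CPM in excitatory neurons. The endothelial gene Cldn5 was represented by 2 UMIs in WT replicate 1, whereas WT replicate 6 held 81, of which 78 came from 1 cell. The haemoglobin gene Hba-a1 had 401 and 1649 UMIs, of which 1 cell of WT replicate 6 held 888. Against MGE interneurons, 0 of 7 excitatory, 0 of 5 vascular and 0 of 5 erythroid markers passed the edgeR test, where 1, 2 and 0 had an unadjusted p below 0.05 and DESeq2 called 0, 1 and 0. Of 7 dissociation stress genes and 1 oligodendrocyte precursor marker 0 passed, with 3 and 0 at an unadjusted p below 0.05 and 0 called by DESeq2. Of 6 microglia markers 1 was lower, C1qa, with 37 and 65 UMIs in MGE interneurons, and the median log2 difference of the list was -3.09. The C1qa call was lost with the stricter gate (edgeR adjusted p = 0.0668). Of 9 progenitor and cycling markers 1 was higher and 1 lower, Pax6 at 41.2 and 36.1 CPM against 13.7 and 14.7 CPM and Slc1a3 at 26.1 and 30.2 CPM against 75.1 and 85.5 CPM. The Pax6 call was lost with the stricter cell filter (edgeR adjusted p = 0.0832). That for Slc1a3 was lost without likely doublets (edgeR adjusted p = 0.0967) and with cells thinned to 1500 UMIs (0.916). It was also lost without cells holding excitatory transcripts (0.147) and with matched exclusions of MGE cells (0.439). Of 3 Cajal-Retzius markers 1 was lower, Reln, given above. The part of RNA from these cell types in the differences was not tested. Likely doublets made up 7.19% and 13.5% of the CGE-type cells, and 22.7% and 18.3% of the MGE interneurons. MGE interneurons with at least 2 Adarb2 UMIs numbered 46 and 31. When the MGE cells were held to the same exclusions, 518 genes were called in place of 370, of which 315 were among the 370. With likely doublets left out there were 577.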

How the data were processed

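The deposited files hold, per the labels and file headers, unnormalized UMI counts per gene and cell that the authors made with Cell Ranger 7.0.0. The submitters' processing notes name the build mm10, and whether intronic reads were counted is not given in the sources used here, so each gene was compared with itself between classes. The labels name 2 libraries of 1 group, and p-values therefore measure the spread between these samples, which may be technical.

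A cell was retained if its UMIs numbered 1500 to 60000, with less than 10% of them mitochondrial, and classes were gated on raw UMIs. The libraries shared 59 barcodes, of which 0 were CGE-type. Doublets were kept in the main comparison and, as an alternative, the cells with the highest Scrublet scores (scanpy 1.11.5, 0.8% per 1000 cells) were left out. UMIs were summed per library and class and tested with edgeR 4.0.16 (quasi-likelihood, TMM scaling, filterByExpr, two-sided, Benjamini-Hochberg adjustment over all genes tested). The test was run on simulated data whose sums were drawn independently. That check therefore does not cover the sharing of a library by 2 classes. CPM are summed UMIs scaled to 1000000 without further correction, and log2 differences come from the edgeR fit. Same-library sums deviated together across genes (r = 0.225, 0.3 and 0.347 against MGE interneurons, dorsal LGE-type and other cells). The libraries are also different embryos, so library and embryo cannot be told apart as its source. A fit with the library as a block was an alternative. DESeq2 1.42.0, no TMM scaling, no filter, a stricter gate (Adarb2 of at least 3 and Prox1 of at least 2), a stricter cell filter (3000 to 30000 UMIs, under 5% mitochondrial), thinning to 1500 UMIs and leaving out cells with excitatory transcripts were the others. Matched exclusions for MGE cells were added after seeing the data.

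Genes were named by rule: an adjusted p below 0.05, the same direction in both libraries and at least 50 CPM in the higher class, taking the 12 largest differences each way against MGE interneurons and the 8 largest in the other comparisons, plus members of fixed lists. The cells and lists were chosen with earlier results of these data known. Some genes are counted in the lists but are not reported by name here.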

Additional observations from a re-analysis of the deposited data

How the results depend on the processing

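The number of genes called against MGE interneurons (370) was 953 with no filter on low counts and 577 with likely doublets left out, and stayed within 1.5 times under the other alternatives, from 257 with DESeq2 to 518 with matched exclusions of MGE cells and 515 with the library as a replicate block. Against dorsal LGE-type cells (458), it was 272 with DESeq2, 290 with the stricter cell filter, 909 with no filter and 758 with the replicate block. Against all other cells (2147), it was 1320 with no filter and 544 with cells thinned to 1500 UMIs, and DESeq2 called 2895, of which 1531 were higher, where edgeR had 893 of 2147 higher. The CGE-type share of 1.71% was 0.881% with the stricter gate, 1.72% without likely doublets, 1.48% with the stricter cell filter and 1.13% without cells holding excitatory transcripts. It was 1.71% and 1.72% in the single libraries. The stricter gate and the setting without excitatory transcripts lower the share by construction. Both remove CGE-type cells while the total stays at all cells kept, as in 88 of 8139 and 97 of 8209 for the latter. The cause of the other shifts was not tested. Without TMM scaling, 229 of 364 genes called against MGE interneurons were lower. Foxp2, called higher than in other cells, turned to -0.0037 on the log2 scale with the stricter gate (edgeR adjusted p = 0.992). With the replicate block, 369 of the 370 genes called against MGE interneurons were called again, and all 458 of those against dorsal LGE-type cells. Leaving out a library leaves no residual degrees of freedom, so those settings gave values without a test. Without WT replicate 1 and without WT replicate 6, the fold difference moved by over 1.5 times for some of the named genes. These were 14 and 15 of the 63 called against MGE interneurons and 12 and 12 of 61 against dorsal LGE-type cells. Against other cells they were 14 and 18 of 108. Of the named genes 0 changed sign, but the rule for the largest differences had already asked for the same direction in both libraries. By the spread between replicates, 9 and 17, 14 and 17, and 21 and 21 of the named genes moved. That spread is made from the same 2 single-library values, so these counts do not measure stability. With 728637 and 859698 UMIs in the class, 10 CPM is fewer than 10 molecules in a library, and a gene with no call at such a level is not shown to be alike between the classes.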
